A study of Homo sapiens with 4 samples.

Results

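The genes described here encode RNA-binding proteins of the ZFP36, CELF and MBNL families together with ELAVL1. They were taken from the expression table by gene symbol, and all 9 listed genes (ZFP36, ZFP36L1, ZFP36L2, ELAVL1, CELF1, CELF2, MBNL1, MBNL2 and MBNL3) had a row among the 28412 genes of the table. The list was selected on the lower FPKM of ZFP36L2 and CELF2 after LDB1 knockdown in these same libraries, so these 2 genes are described without a p-value of their own and counts that include them support nothing, and the other 7 came in as relatives or, for ELAVL1, as the opposing factor. RNA-seq was performed on 4 libraries of cells that the labels name NB4, which is the name of a human acute promyelocytic leukemia line. The control group was 2 libraries from cells with the control vector sh-NC, and the knockdown group was 2 libraries from cells with sh-LDB1, an shRNA against LDB1 in the lentiviral pLKO.1 backbone. LDB1 is a cofactor without DNA binding of its own that works in a transcription complex with LMO2 and DNA-binding factors. The labels describe the controls as cells of control genotype without treatment, 3 shRNAs against human LDB1 were designed, and the labels do not say which of them was sequenced. No source says that the libraries of a group came from separate cultures, so the p-values measure only the spread between these libraries, which may be technical.

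These proteins decide how long an mRNA lasts and how its exons are joined. ZFP36 (tristetraprolin), ZFP36L1 and ZFP36L2 hold CCCH zinc fingers that bind AU-rich elements in 3' UTRs and recruit the CCR4-NOT deadenylase, and the shortened mRNA is then decapped or degraded by the exosome. ELAVL1 (HuR) binds similar U-rich and AU-rich elements and mostly stabilises the mRNA. CELF1 and CELF2 bind GU-rich elements, and MBNL1, MBNL2 and MBNL3 (muscleblind-like) bind motifs that hold UGC. The CELF and MBNL families often act in opposite directions on the same alternative exons. In blood cells, ZFP36 limits inflammatory cytokine mRNAs, and ZFP36L2 is known for its role in hematopoietic stem cells and erythroid progenitors.

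The AU-rich heptamer TATTTAT is the core of the element that ZFP36 proteins bind, and the mRNAs of the family members carry it themselves. In the canonical transcripts of GENCODE release 44 on GRCh38, the 3' UTR held 3 copies in ZFP36, 3 in ZFP36L1, 3 in ZFP36L2, 5 in ELAVL1, 1 in CELF1, 2 in CELF2, 2 in MBNL1, 3 in MBNL2 and 3 in MBNL3. Of 10103 genes compared further on, 6681 had 0 copies there, 1988 had 1 and 1434 had 2 or more. Their median 3' UTR lengths were 798, 1978 and 3485 bases. Some members have long 3' UTRs, with 6293 bases in CELF1, 7622 in CELF2 and 10346 in MBNL3. The 30-base windows below show the densest stretch of 5 members, and that of CXCL8, a known target mRNA that is described further on. All windows lie within a single 3' UTR exon, are written 5' to 3' on the gene's strand, and have the heptamers in capitals.
ZFP36, chr19:39409184-39409213, plus strand: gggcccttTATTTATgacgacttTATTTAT
ZFP36L1, chr14:68788346-68788375, minus strand: gcttatttaacttatcaaaacgTATTTATt
ZFP36L2, chr2:43223458-43223487, minus strand: tcaatatgaaaactatttaactTATTTATt
ELAVL1, chr19:7961839-7961868, minus strand: tTATTTATaccTATTTATgTATTTATTTAT
CELF2, chr10:11329932-11329961, plus strand: ctgcctcagaaataatggaagtTATTTATt
CXCL8, chr4:73743105-73743134, plus strand: tattaaccTATTTATTATTTATgTATTTAT
The window of ELAVL1 held 4 copies, that of CXCL8 held 3 and that of ZFP36 held 2, whereas those of ZFP36L1, ZFP36L2 and CELF2 held 1 copy each.

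The target of the knockdown was checked first. LDB1 measured 135 and 120.1 FPKM (fragments per kilobase, normalised to sequencing depth) in sh-NC, and 10.3 and 9.47 FPKM in sh-LDB1. The knockdown libraries kept 7.73% of the control mean, and the log2 fold change was -3.56 (SE 0.0765, limma with Benjamini-Hochberg adjustment, adjusted p = 6.93e-05). Fold changes are on the scale of log2(FPKM + 1) throughout, sh-LDB1 minus sh-NC, which understates the change of low genes.

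The labelled cell type was compared with its markers. Of 9 promyelocytic markers, 7 had a row, and their summed level was 12.7 and 11.7 FPKM in sh-NC and 41.4 and 37.9 FPKM in sh-LDB1. ELANE was at 0 in 3 of the 4 libraries. The 14 erythroid markers, which include the globins, GATA1 and KLF1, summed to 4283 and 4463 FPKM in sh-NC and to 449 and 412 FPKM in sh-LDB1, with 11 of them at 1 FPKM or more in all libraries. Megakaryocytic markers summed to between 2.86 and 3.91 FPKM, and lymphoid markers to between 21.3 and 47.7 FPKM, most of which was CD3D. In the controls these markers went against the labelled cell type, with erythroid genes high and promyelocytic genes low. The cells are therefore called by their label only, and the identity of the line was not tested here. The paper states that its lines were authenticated by STR profiling, and its supplement holds a report of an exact match to NB4. That report is of a cell sample and not of these libraries. Both sums also moved with the groups, and their part in the differences between groups given below was not tested. In bulk RNA, fewer cells of a type and less RNA per cell cannot be told apart. Depth recovered from the FPKM steps ran from 15395226 to 17948995 reads per library.

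Of the 9 members, 8 averaged 1 FPKM or more and were tested, and MBNL3 was not. A gene was called at an adjusted p below 0.05 with a fold change above 2 or below 0.5. By that rule 1 of the 8 was higher in sh-LDB1, beside 9.5% of all 13300 genes tested, and 2 were lower, beside 10.3% of all genes. At an adjusted p below 0.05 with any fold, 1 member was higher, beside 29.9% of all genes, 5 were lower, beside 37.4%, and 2 did not pass. For 7 of the 8, no sh-LDB1 library lay within the range of the controls, beside 84.6% of all genes. Since the list was selected on this same contrast, nothing is read from these counts. The median log2 fold change of all genes tested was -0.08.

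ZFP36L2 was the most abundant member in the controls. It lies at chr2:43222402-43226606 on the minus strand and had 56.6 and 65.4 FPKM in sh-NC against 23.3 and 23.8 FPKM in sh-LDB1, or 3383, 3566, 1378 and 1330 recovered reads. Both knockdown libraries were well below both controls, and they differed from each other far less than the controls did. The mean was 61.0 ± 6.27 FPKM (SD, n = 2) in sh-NC and 23.5 ± 0.360 FPKM (SD, n = 2) in sh-LDB1, which is 38.6% of the control, with a log2 fold change of -1.33 (SE 0.0800).

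ZFP36, the founding member and an immediate early gene in many cells, had the opposite pattern. Its level was 7.93 and 8.67 FPKM in sh-NC and 33.6 and 32.9 FPKM in sh-LDB1, from 258, 257, 1081 and 1001 reads. The knockdown libraries stood together above the controls, with means of 33.2 ± 0.464 against 8.30 ± 0.522 FPKM (SD, n = 2 each), a ratio of 4.004. On the log scale ZFP36 rose by 1.88 (SE 0.0583, limma adjusted p = 9.57e-05). It lies at chr19:39406847-39409412 on the plus strand.

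ZFP36L1, at chr14:68787660-68796253 on the minus strand, moved little. It had 15.0 and 17.6 FPKM in sh-NC and 13.5 and 13.3 FPKM in sh-LDB1. The groups did not overlap, yet the controls lay further apart than the nearer control lay from the knockdown libraries. The log2 fold change was -0.26 (SE 0.0846, limma adjusted p = 0.0485). The adjusted p was above 0.05 when FPKM were rescaled to TPM, where the change was -0.10 with an adjusted p of 0.347, and in 8 of 13 other settings in all, over which it ran from 0.0106 to 0.347.

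**Figure D1:**
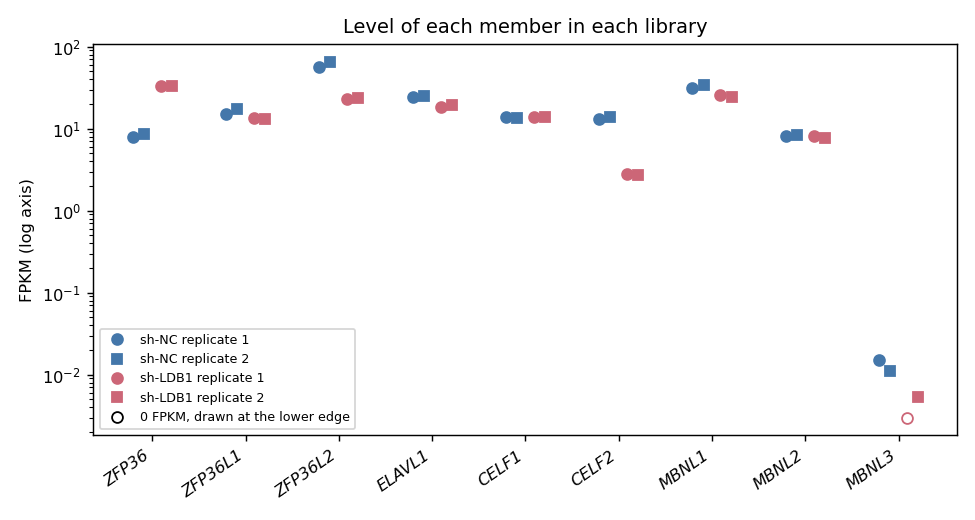
Level of each of the 9 members in each library, in FPKM on a log axis. Circles are replicate 1 and squares replicate 2, blue for sh-NC and red for sh-LDB1, and the open circle is a value of 0. ZFP36L2 and CELF2 lie lower and ZFP36 higher in both sh-LDB1 libraries, CELF1 and MBNL2 lie at nearly the same level in all 4, and MBNL3 lies below 0.02 FPKM.

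FPKM is per length, so the members of a family can be set beside each other within a library, and their shares do not depend on how libraries are scaled. For most genes that length was close to the exons of all annotated transcripts together, which can exceed the transcript expressed. Levels compared between genes, here and elsewhere, are therefore approximate. In sh-NC, ZFP36L2 made up 71.2% and 71.4% of the summed FPKM of the 3 ZFP36 family genes, and ZFP36 made up 9.98% and 9.46%. In sh-LDB1, ZFP36L2 made up 33.1% and 34.0%, and ZFP36 made up 47.7% and 47.0%. The leading member of the family was thus ZFP36L2 in the controls and ZFP36 after knockdown. ZFP36L1 held between 18.9% and 19.2% in all 4 libraries. The level of ZFP36 divided by that of ZFP36L2 was 0.140 and 0.133 in sh-NC against 1.44 and 1.38 in sh-LDB1. The family as a whole summed to 79.5 and 91.7 FPKM in sh-NC and 70.3 and 70.0 FPKM in sh-LDB1. Scaled to TPM the sums were 249.1, 286.7, 246.6 and 248.7 in the same order, so the sums of sh-NC replicate 1 and the knockdown libraries then lay close together.

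**Figure D2:**
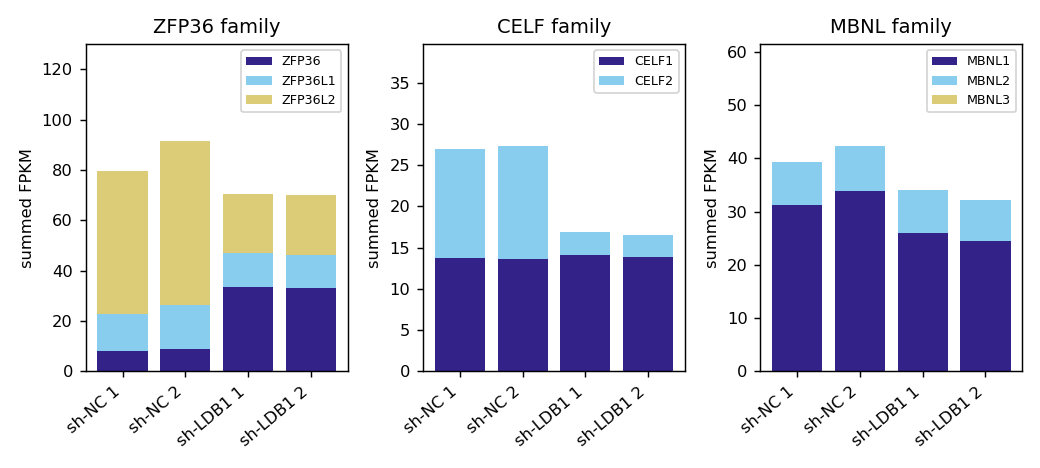
Summed FPKM of the ZFP36, CELF and MBNL families in each library, with each bar divided into its members and starting at 0. The largest segment of the ZFP36 family is ZFP36L2 in sh-NC and ZFP36 in sh-LDB1, and the CELF2 segment shrinks in sh-LDB1 while that of CELF1 stays between 13.6 and 14.1 FPKM.

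ELAVL1, which competes with ZFP36 proteins for AU-rich mRNAs, lies at chr19:7958573-8005659 on the minus strand. It had 24.7 and 25.0 FPKM in sh-NC and 18.6 and 19.2 FPKM in sh-LDB1. Both knockdown libraries were lower, with 76.2% of the control mean. ELAVL1 fell by 0.37 on the log2 scale (SE 0.0444, limma adjusted p = 0.00204), which is short of a fold of 2, and as TPM the change was -0.21 with an adjusted p of 0.0163. The ratio of ZFP36 to ELAVL1 was 0.322 and 0.347 in sh-NC against 1.81 and 1.71 in sh-LDB1, so the order of the 2 levels was opposite in the groups.

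CELF2 spans chr10:10798397-11336675 on the plus strand and is the CELF gene typical of blood and brain. Its level was 13.1 and 13.8 FPKM in sh-NC and 2.84 and 2.74 FPKM in sh-LDB1, from 2329, 2228, 499 and 455 reads. The libraries of each group lay close together and the groups far apart, with means of 13.4 ± 0.462 and 2.79 ± 0.0694 FPKM (SD, n = 2 each). The knockdown level was 20.8% of the control, with a log2 fold change of -1.93 (SE 0.0591). An antisense gene, CELF2-AS1, overlaps it and had at most 21 reads in any library.

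CELF1, the widely expressed relative, lies at chr11:47465933-47565569 on the minus strand. It had 13.8 and 13.6 FPKM in sh-NC and 14.1 and 13.8 FPKM in sh-LDB1. All 4 values lay within the span of 13.6 to 14.1 FPKM, and the log2 fold change was 0.02 (SE 0.0453, limma adjusted p = 0.670). After scaling to TPM it was 0.19 with an adjusted p of 0.0211. NDUFS3 overlaps CELF1 on the other strand and had between 1110 and 1337 reads, and the use of strand in counting is not given in the sources used here, so some reads could belong to either gene.

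Set side by side, CELF2 and CELF1 were at about the same level in the controls, with ratios of 0.951 and 1.01, and at ratios of 0.202 and 0.198 after knockdown. The share of CELF2 in the sum of both genes was 48.7% and 50.3% in sh-NC against 16.8% and 16.5% in sh-LDB1. The sum itself was 26.9 and 27.4 FPKM in sh-NC and 16.9 and 16.6 FPKM in sh-LDB1, and was also lower in sh-LDB1 as TPM. Of the 7 other genes of the CELF and ELAV families, 3 had a row, and none reached 1 FPKM. CELF3 was at most 0.0447 FPKM, CELF5 at most 0.406 FPKM, and ELAVL3 at most 0.0656 FPKM, so none was tested.

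MBNL1, the main muscleblind gene of blood cells, lies at chr3:152243828-152465780 on the plus strand. Its level was 31.2 and 33.9 FPKM in sh-NC and 26.0 and 24.5 FPKM in sh-LDB1. The groups did not overlap, and the knockdown mean was 77.4% of the control. MBNL1 fell by 0.36 on the log2 scale (SE 0.0623, limma adjusted p = 0.00711), and the adjusted p was 0.0502 without sh-LDB1 replicate 2. As TPM the change was -0.19 with an adjusted p of 0.0442.

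MBNL2, at chr13:97221434-97394120 on the plus strand, had 8.08 and 8.48 FPKM in sh-NC and 8.15 and 7.77 FPKM in sh-LDB1. The groups overlapped, and the log2 fold change of -0.05 (SE 0.0580, limma adjusted p = 0.474) was within the spread between libraries and turned to 0.10 after scaling to TPM. MBNL3, on chromosome X from 132369320 to 132489968, gave 3 and 2 reads in sh-NC and 0 and 1 reads in sh-LDB1. These counts are at or below 3 reads in every library, so no fold is given and a difference was not detectable at this depth. MBNL1 made up 79.4% and 80.0% of the family in sh-NC against 76.1% and 75.9% in sh-LDB1.

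**Figure D3:**
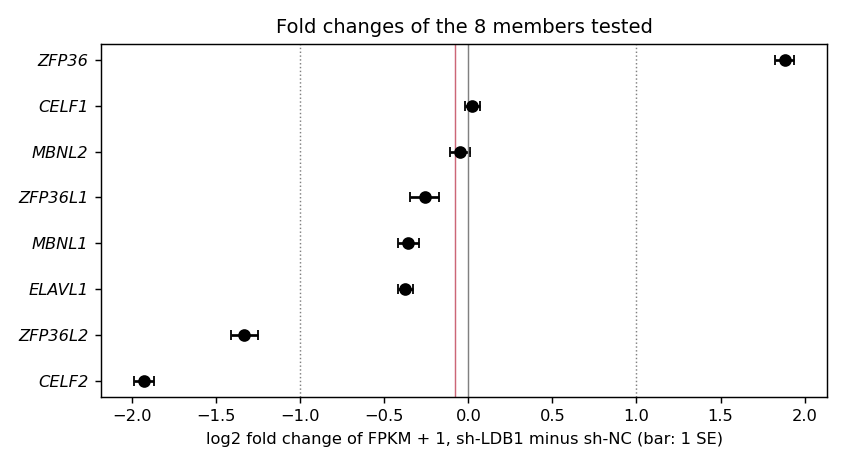
Log2 fold change of FPKM + 1 for the 8 members tested, sh-LDB1 minus sh-NC, with bars of 1 SE. The grey line marks no change, the dotted lines a fold of 2 in either direction and the red line the median of all genes tested (-0.08). ZFP36 lies beyond the upper dotted line, ZFP36L2 and CELF2 beyond the lower one, and the other 5 between them.

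The order of the members by level differed between the groups. In sh-NC it ran from ZFP36L2 through MBNL1, ELAVL1, ZFP36L1, CELF1, CELF2, ZFP36 and MBNL2 to MBNL3. The neighbours CELF1 and CELF2 overlapped in that order, as did ZFP36 and MBNL2. In sh-LDB1 the order was ZFP36, MBNL1, ZFP36L2, ELAVL1, CELF1, ZFP36L1, MBNL2, CELF2 and MBNL3, and no neighbours overlapped between the 2 libraries.

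The genes whose pattern was most like those of ZFP36L2 and CELF2 were looked for above a mean level of 10 FPKM, by the distance between levels on the log2(FPKM + 1) scale, each centred on its mean over the 4 libraries. Nearest to ZFP36L2 among 4838 genes were SRSF1, a splicing factor, at a distance of 0.0357, IPO5, a nuclear import receptor, at 0.0447, and BRCA1, a DNA repair gene, at 0.0497. Nearest to CELF2 among 4839 genes were CBX3, a heterochromatin protein, at 0.0199, and the replicative helicase subunits MCM6 at 0.0349 and MCM4 at 0.0407. With 4 libraries in 2 groups, a small distance says little more than that the difference between the groups was of like size.

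The machinery through which these proteins act was described with lists chosen by function, without a test of any list. Counts are given at an adjusted p below 0.05 with any fold, and beside them how many passed a fold of 2. Scaling to TPM moved the median of all genes up by 0.14 and scaling by the median of ratios moved it up by 0.10, so each list is read against the median of all genes, and the counts under TPM are given too. Over all genes tested with any fold, 3983 were higher and 4978 lower, so 55.6% of those that passed were lower in sh-LDB1, and as TPM 4876 were higher and 4047 lower, or 45.4% lower. Past a fold of 2 the share that was lower was 52.0%, and 38.5% as TPM.

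Among 18 other RNA-binding regulators of mRNA decay, 3 rose, 8 fell and 7 did not pass, with none higher and 3 lower past a fold of 2. The median log2 fold change was -0.10, near that of all genes, and as TPM it was 0.06 with 6 higher and 6 lower. IGF2BP2, which shields mRNAs from decay, fell from 23.6 and 22.6 FPKM to 10.1 and 10.7 FPKM (-1.08, SE 0.0521). Its relative IGF2BP3 fell from 7.62 and 7.60 to 2.61 and 2.37 FPKM (-1.30, SE 0.0694). YBX1, an abundant mRNA-packaging protein, fell from 769.5 and 747 to 411 and 406 FPKM (-0.89, SE 0.0440). IGF2BP2, IGF2BP3 and YBX1 had a limma adjusted p of at most 0.000224. The IGF2BP genes did not all move, since IGF2BP1, at a higher level, did not pass. It had 33.1 and 33.8 FPKM in sh-NC and 32.0 and 30.5 FPKM in sh-LDB1 (-0.10, SE 0.0464, limma adjusted p = 0.133).

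Of 19 deadenylation genes, 2 rose, 8 fell and 9 did not pass, with a median of -0.14, and as TPM 7 were higher and 5 lower with a median of 0.01. Past a fold of 2 there were 1 higher and 1 lower. Of the 11 CNOT genes listed, CNOT2, CNOT6, CNOT6L, CNOT7 and CNOT10 fell as FPKM, and the others did not pass. These falls ran from -0.32 (SE 0.0939) in CNOT2 to -0.55 (SE 0.114) in CNOT7, short of a fold of 2. PARN, a poly(A)-specific ribonuclease, fell from 9.41 and 9.21 to 2.99 and 2.94 FPKM (-1.38, SE 0.0576, limma adjusted p = 0.000146). TOB1, which links CCR4-NOT to poly(A)-binding protein, rose from 11.5 and 14.7 to 32.9 and 32.1 FPKM (1.26, SE 0.120, limma adjusted p = 0.00106). BTG2 of the same family rose from 49.5 and 49.96 to 60.4 and 60.2 FPKM (0.27, SE 0.0376, limma adjusted p = 0.00327). The family did not move together, since BTG1 (-0.49, SE 0.101) and BTG3 (-0.30, SE 0.0691) fell. TOB2 (-0.21, SE 0.0758) did not pass.

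Of 16 tested genes of decapping and 5' to 3' decay, 2 rose, 8 fell and 6 did not pass, with a median of -0.27, and as TPM 5 were higher and 5 lower with a median of -0.11. The catalytic decapping subunit DCP2 fell from 17.1 and 18.0 to 7.57 and 7.72 FPKM (-1.10, SE 0.0524), and the enhancer of decapping EDC3 rose from 10.05 and 10.02 to 23.5 and 21.8 FPKM (1.10, SE 0.0567). LSM5, of the ring that binds shortened tails, fell from 10.7 and 11.5 to 4.53 and 4.72 FPKM (-1.10, SE 0.0624). The 3 genes had limma adjusted p-values of at most 0.000256. DCP2 and LSM5 were the 2 called lower past a fold of 2, and as TPM neither passed it.

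Of 15 exosome and SKI complex genes, 3 rose, 9 fell and 3 did not pass, and past a fold of 2 there were 1 higher and 3 lower. The median was -0.52, and as TPM it was -0.36 with 4 higher and 8 lower. The exosome core subunit EXOSC2 fell from 17.4 and 17.0 to 4.84 and 4.82 FPKM (-1.64, SE 0.0498), and EXOSC9 fell from 11.9 and 12.7 to 3.64 and 3.94 FPKM (-1.47, SE 0.0656). The SKI helicase SKIV2L went the other way, from 20.6 and 19.8 to 48.4 and 48.6 FPKM (1.22, SE 0.0432). These 3 changes had limma adjusted p-values of at most 0.000158.

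The p38 pathway acts on ZFP36 directly, since MK2 phosphorylates it, 14-3-3 proteins bind the phosphorylated form and phosphatase 2A removes the phosphate. Of 15 genes, 6 rose, 8 fell and 1 did not pass, with 2 higher and 1 lower past a fold of 2 and a median of -0.27 (7 higher and 7 lower as TPM, median -0.10). The list also held DUSP1, which was 1 of the 2 higher past a fold of 2 (1.85, SE 0.112). DUSP1 is counted again among the AU-rich element mRNAs below. MAPK13 (p38 delta) rose from 1.13 and 1.03 to 15.5 and 15.6 FPKM (2.997, SE 0.0631, limma adjusted p = 6.93e-05). The other p38 genes of the list went the other way. MAPK14 fell from 20.2 and 20.3 to 12.3 and 11.8 FPKM (-0.70, SE 0.0465, limma adjusted p = 0.000386). MAPK11 fell from 7.4 and 7.6 to 3.0 and 3.9 FPKM (-0.94, SE 0.111, limma adjusted p = 0.0020). The 14-3-3 gene YWHAH fell from 83.2 and 82.1 to 24.8 and 27.1 FPKM (-1.64, SE 0.0560, limma adjusted p = 0.000111), and YWHAE fell from 106.4 and 107.5 to 59.2 and 56.7 FPKM (-0.87, SE 0.0425, limma adjusted p = 0.000185). The remaining 14-3-3 genes of the list were split. YWHAB (0.44, SE 0.0676) and YWHAG (0.28, SE 0.0445) rose, YWHAQ (-0.51, SE 0.0470) fell, and YWHAZ (0.07, SE 0.0429) did not pass. The MK2 gene MAPKAPK2 (0.16, SE 0.0408) rose slightly, and its relative MAPKAPK3 (-0.53, SE 0.0506) fell. Among the phosphatase 2A genes, PPP2CB (0.56, SE 0.0509) rose, and PPP2CA (-0.37, SE 0.0505) and PPP2R1A (-0.27, SE 0.0450) fell.

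The mRNAs known to carry AU-rich elements were taken from a list of 29 genes, of which 28 had a row and 27 had the heptamer in the 3' UTR, 22 of them at least 2 copies. Only 17 reached a mean of 1 FPKM, and 5 of these did so only through sh-LDB1, where they were high, so the counts are a description of those 17. Among them 12 were higher, including those 5, 4 were lower and 1 did not pass, 11 and 2 of these past a fold of 2, and the median was 1.16 (13 higher and 4 lower as TPM). Over all 28 genes without the filter, the median was 0.76.

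CXCL8, the neutrophil chemokine whose heptamers are shown above, went from 0.380 and 0.418 to 14.1 and 14.4 FPKM (a difference of 3.44, SE 0.0687), and is given as a description because it passed the filter only through sh-LDB1. CDKN1A, the cell cycle inhibitor p21, rose from 3.22 and 3.98 to 30.7 and 31.0 FPKM (2.80, SE 0.0927, limma adjusted p = 0.000106). Its canonical 3' UTR is the only one of the 28 with 0 copies of the heptamer. MYC, which has 1 copy, fell from 159.1 and 160.9 to 27.3 and 28.1 FPKM (-2.49, SE 0.0398, limma adjusted p = 6.77e-05). The list thus held large changes in both directions beside the higher ZFP36 and lower ZFP36L2.

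Among the 10105 tested genes with a 3' UTR in the annotation used (3195 had none matched), the copy number of the heptamer in the 3' UTR of the longest-coding transcript went with almost no difference in the median. The median log2 fold change was -0.08 in 6948 genes with 0 copies, -0.09 in 1864 genes with 1 copy and -0.08 in 1293 genes with 2 or more. Called higher past a fold of 2 were 10.6%, 7.94% and 8.12%, and called lower were 10.9%, 11.4% and 8.28%, in the same order. The 3' UTRs also differed in length, with medians of 673.5, 1882 and 3376 bases. The longest-coding transcript can have a short 3' UTR, with 226 bases in CELF2 and 211 in ZFP36L1. Both therefore count as genes with 0 copies here, although their canonical 3' UTRs hold 2 and 3. With the canonical transcript, an alternative chosen after seeing the data, the medians were -0.08, -0.09 and -0.09.

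Splicing is the other process in which CELF and MBNL proteins act. Of 28 tested splicing regulators outside these families, 1 rose, 24 fell and 3 did not pass, with none higher and 6 lower past a fold of 2. The median was -0.59, and as TPM it was -0.42 with 2 higher and 21 lower. HNRNPA1 fell from 443 and 419 to 131 and 128 FPKM (-1.73, SE 0.0476, limma adjusted p = 8.31e-05). HNRNPA2B1 fell from 111.8 and 108.8 to 52.6 and 52.4 FPKM (-1.06, SE 0.0392), and HNRNPC fell from 93.8 and 94.6 to 45.7 and 44.2 FPKM (-1.05, SE 0.0405), each with a limma adjusted p of at most 0.000123. The HNRNPA1 and HNRNPC genes have processed pseudogenes, so their read counts are uncertain.

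**Figure D4:**
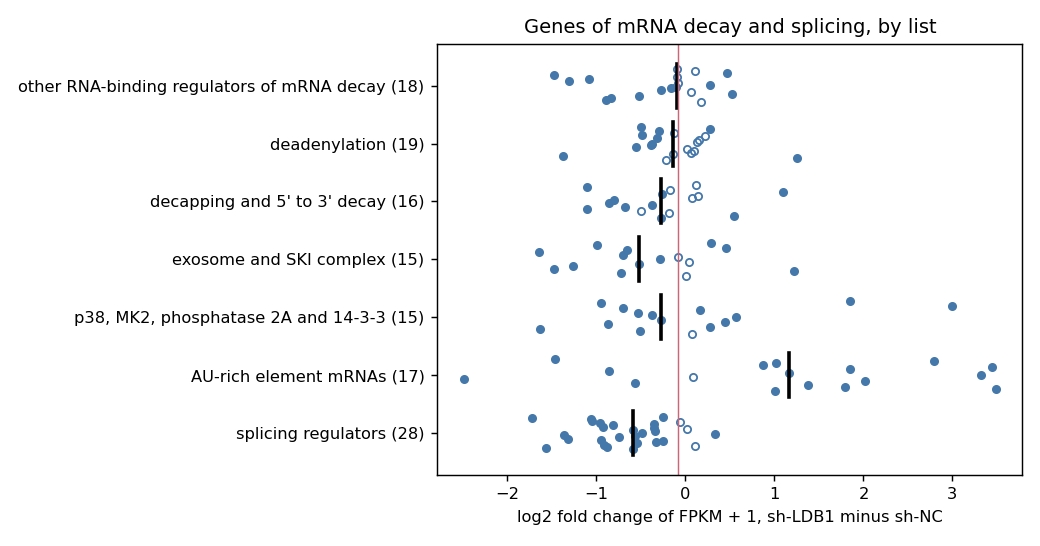
Log2 fold change of FPKM + 1 of each tested gene in 7 lists, with the number of genes in brackets. Filled points have a limma adjusted p below 0.05, black bars are list medians, and the red line is the median of all genes (-0.08). The AU-rich element mRNAs have a median of 1.16, the splicing regulators one of -0.59, and the lists of mRNA decay lie between -0.52 and -0.10.

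The promoters of the members were searched for motifs of the factors that LDB1 complexes contain, in the RefSeq windows from 250 bases before to 50 bases after each start on GRCh38.p14. GATA motifs were TGATAA and AGATAA and E-boxes were CAGCTG and CAGATG, on both strands, and TGATAA and AGATAA can share their end letters. Of all 35116 windows, 16.3% held a GATA motif and 29.8% an E-box. For CELF2, 2 of 10 windows held a GATA motif and 3 an E-box, and for CELF1 it was 1 and 1 of 5. ZFP36 had neither in its 1 window, ZFP36L1 had an E-box in 1 of 2, MBNL1 in 3 of 3, MBNL2 in 2 of 2 and MBNL3 in 1 of 4, and these last 4 had no GATA motif. ZFP36L2 and ELAVL1 had no entry. Windows of a gene can overlap, and a shared site was then counted in each, so the windows are not separate promoters. A CAGCTG is shared by overlapping windows of MBNL1, and the E-box windows of CELF2 overlap and share sites. A match is a description of the sequence only.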

How the data were processed

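The cells, labelled NB4, gave 2 sh-NC and 2 sh-LDB1 libraries made with an Illumina TruSeq kit from total RNA. Per the labels and the study's methods, the authors removed poor reads, aligned the rest with HISAT (version 2.0.5 of HISAT2 and the build hg38 in the submitters' processing notes), and deposited 1 table of FPKM per gene and library. The authors used DESeq2 to call changed genes. Counting tool, annotation and strand setting are not given in the sources used here. The table had 0 columns of per-sample values that matched no sample.

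Levels were taken as log2(FPKM + 1). Genes averaging 1 FPKM or more across all 4 libraries entered limma 3.58.1 in R 4.3.3 (eBayes with a trend, group only, Benjamini-Hochberg adjustment over 13300 genes). A gene was called at an adjusted p below 0.05 with more than a 2-fold change either way. Other steps used Python 3.11.15, numpy 2.4.6 and pandas 2.3.3.

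Within a gene and library the deposited FPKM move in steps of 1 read, so reads were recovered from the steps, and 99.98% of values came out whole within 0.05 reads. Fitted gene lengths were within 10% of those of GENCODE release 44 for 86.6% of genes. The number of reads limits the precision of low values, and intervals or floors cover counting error only. In simulated data, 156 of 186 changed genes and 3 unchanged genes among 13068 were called, and all reads were recovered for 99.1% of 2690 genes. The simulation of calls used few changed genes, set folds and the same dispersion for all genes. It therefore does not measure the share of errors among the real calls.

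The members and gene lists were chosen with earlier results of these data known. Genes named are LDB1, the members, the 3 genes of smallest adjusted p in each list, and the 3 genes most like ZFP36L2 and CELF2. Cell type markers, genes that overlap a member, and the 3 measured genes of the CELF and ELAV list were named beside this rule, after their values were seen. Relatives of named genes in the p38 and deadenylation lists, and DUSP1, were named likewise. Alternatives were other pseudocounts, filters, scalings and thresholds, a replicate block, no trend, voom on recovered reads, and leaving out each library. Protein sequences were not used here.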

Additional observations from a re-analysis of the deposited data

How the results depend on the processing

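Over the 13 alternatives, LDB1 ranged from -3.69 to -3.40 on the log2 scale, ZFP36 from 1.82 to 2.04, ZFP36L2 from -1.44 to -1.17, CELF2 from -2.27 to -1.79 and ELAVL1 from -0.40 to -0.21, with no change of direction. The adjusted p of ZFP36L1 was only narrowly below 0.05. It stayed at -0.26 with an adjusted p above 0.05 with no filter (adjusted p = 0.101), without a trend (0.0740) and with a replicate block (0.0515), and it was -0.10 as TPM and -0.14 by the median of ratios. Leaving out 1 library at a time, where a lone library is assumed to vary like the other group, gave ZFP36L1 changes from -0.37 to -0.15, and the adjusted p rose above 0.05 without sh-NC replicate 2, sh-LDB1 replicate 1 or sh-LDB1 replicate 2. For MBNL1 the range was -0.41 to -0.30, with an adjusted p above 0.05 without sh-LDB1 replicate 2, and the change was -0.23 by the median of ratios. CELF1 passed as TPM (0.19) and by the median of ratios (0.14), and MBNL2 turned to 0.10 and 0.061. These 2 scalings raised the values of sh-LDB1 relative to sh-NC in these data. The deposited FPKM summed to 319063 and 319687 in sh-NC and to 285208 and 281397 in sh-LDB1.

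Over genes, the deviations of same-numbered libraries had a correlation of 0.0196, so almost no shared deviation was seen. The labels give these libraries only a shared number, and whether they were prepared together is not known. With the replicate block, 1274 genes were called higher and 1386 lower, against 1264 and 1371 without it, and among the members the block moved the adjusted p of ZFP36L1 alone across 0.05.

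With a minimum mean of 5 FPKM, 710 genes were called higher, since fewer genes were tested. As TPM and by the median of ratios, 0 decapping genes were called lower. In the p38 list 2 genes were called lower with pseudocounts of 0.1 and 0.01 and with voom on recovered reads, and 1 to 2 when a library was left out (2 without sh-LDB1 replicate 2). Without a fold threshold, 3983 genes were higher and 4978 lower, and the list counts, higher and lower, were 3 and 8 for other decay regulators, 2 and 8 for deadenylation, 2 and 8 for decapping, 3 and 9 for the exosome, 6 and 8 for p38, 12 and 4 for AU-rich mRNAs and 1 and 24 for splicing. Tested by limma's treat against a fold of 2, 568 genes were higher and 581 lower, with 1 decay regulator lower, 0 deadenylation genes higher, 0 decapping genes higher and 0 lower, 7 AU-rich mRNAs higher and 2 splicing regulators lower.

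With 2 libraries per group the spread rests on few values, and genes of a few reads, such as MBNL3, could not be compared.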
